A study of Mus musculus with 17 samples.

Results

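Ribosome biogenesis and the export of ribosomal subunits were followed through 45 genes in mouse small intestinal organoids, taken by name from the 26422 genes counted in at least 1 library. This list and that of 109 other pathway genes were chosen with earlier results of these data known. Their shares beside those of all genes are thus descriptions and not independent of the data. Of these 45 genes, 44 were listed under their current symbol and Utp4 under the older symbol Cirh1a, and the 45 passed the filter on low counts in each comparison below. They were ordered by role into 9 genes of subunit export and late maturation, 8 of the box C/D and H/ACA small nucleolar ribonucleoproteins (snoRNPs), 5 nucleolar chaperones and scaffold proteins, 13 factors of 60S assembly, 8 factors of the 40S small subunit (SSU) processome and 2 subunits of RNA polymerase I. Bms1, a GTPase of early 40S assembly, was counted with the export and late maturation genes and not with the SSU processome.

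A ribosome is built in the nucleolus, where RNA polymerase I makes a long precursor rRNA that snoRNPs modify and that assembly factors cut and fold around ribosomal proteins into a large 60S and a small 40S precursor. Both precursors leave the nucleus through the nuclear pore with the export receptor XPO1, which holds the 60S precursor by the adaptor Nmd3, and late factors are released from them in the cytoplasm before the subunits can join. Dividing cells of the intestinal crypt carry large nucleoli and make many ribosomes, and these genes are in general more highly expressed there than in differentiated cells.

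Organoids were grown from crypts of C57BL/6 mice of both sexes, aged 1 to 6 months. They were expanded in ENR+CV, a medium with EGF, Noggin, R-spondin 1, the GSK3 inhibitor CHIR99021 and valproic acid that enriches stem cells, and then moved to ENR+CD, in which the Notch pathway inhibitor DAPT replaces valproic acid and secretory cells form. EGF, Noggin, R-spondin 1 and CHIR99021 were thus present in every group. The XPO1 inhibitor KPT-330 was added to part of the ENR+CD cultures at 160 nM. The 17 Seq-Well S3 libraries of single cells comprised 2 of ENR+CV at day 0, 7 of ENR+CD controls (1 each at days 0.25, 1, 2, 3 and 4, and 2 at day 6) and 8 of ENR+CD with KPT-330 (1 each at days 0.25, 1, 2 and 4, and 2 each at days 3 and 6). Each library was a pool of many organoids, an epithelial culture without the stroma and immune cells of the gut. The labels do not say which libraries came from separate cultures or mice, so the spread between libraries may be technical. The p-values below measure the scatter of libraries around each fit. In the comparisons of KPT-330 with control this scatter takes in any change of the effect between days, and in the slopes any departure from a straight line.

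The 19877 cells that the authors kept gave 3458887 to 12433109 unique molecular identifiers (UMIs) per library. The 14 pairs of libraries that shared a cell barcode, of 136 pairs, shared 1 each. The summed level of 4 epithelial markers ran from 25.7 to 29.5 UMIs per 10,000 in the control libraries and that of 6 markers of blood, vessel and stromal cells reached at most 0.0389. Levels below are UMIs of a gene per 10,000 UMIs of a library, scaled by the trimmed mean of M values (TMM) over all genes, and are called scaled UMIs per 10,000. Counts came from the 3′ ends of transcripts, so levels were compared between samples and not between genes. In the mm10 annotation 19 of the 45 genes overlap a gene on the other strand, such as Eif6 (Gm16098), Nop56 (Idh3b), Dkc1 (Mpp1), Rrp1b (Hsf2bp) and Wdr12 (Carf), and the strand setting of the counting was not given in the sources used here.

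The 45 genes were first compared between cells with and without counts of a proliferation gene. Within the 9 untreated libraries, cells with at least 1 UMI of the proliferation gene Mki67 (called cycling) were set against cells with none (called other), with UMIs summed per library and class and the library as a block. Mki67 can go uncounted in a cell with few UMIs, so other cells may include cells in the cycle. Every one of the 45 genes had a higher fitted level in cycling cells, and 38 passed the test, an adjusted p under 0.05 by the quasi-likelihood test of edgeR with Benjamini-Hochberg adjustment over all genes. Over all 11321 genes tested, 22.1% passed in this direction and 44.4% in either. The median log2 fold change was 0.41 over the 45 genes and -0.01 over all genes tested.

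The largest differences were in the snoRNP group, in which 7 of 8 genes passed with a group median of 0.57. Nhp2, Gar1 and Dkc1 belong to the H/ACA particle, in which Dkc1 is the pseudouridine synthase. In the controls at day 6, Nhp2 stood at 1.28 and 1.55 scaled UMIs per 10,000 in cycling cells and at 0.619 and 0.615 in other cells. Nhp2 was higher in cycling cells in 9 of 9 libraries, with a fitted log2 fold change of 0.76 (standard error, SE, 0.0840, edgeR adjusted p = 2.37e-06). Gar1 differed by 0.70 (SE 0.0754, edgeR adjusted p = 1.98e-06) and Nop58, a core protein of the box C/D particle, by 0.54 (SE 0.0634, edgeR adjusted p = 4.98e-06), and both were also higher in 9 of 9 libraries. Fibrillarin (Fbl), the methyltransferase of the same particle, had a fitted difference of 0.53 with an SE of 0.231 and did not pass. With 393 UMIs over all libraries and 7 in the library with fewest, Fbl was the most thinly counted of the 45 genes.

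All 5 nucleolar chaperones and scaffold genes passed. Nucleolin (Ncl), a major RNA-binding protein of the nucleolus, was at 9.02 and 8.27 scaled UMIs per 10,000 in cycling cells of the day 6 controls and at 5.15 and 4.55 in their other cells. Its fold change was 0.62 (SE 0.0633, edgeR adjusted p = 1.05e-06), against 0.54 for Nolc1 and 0.54 for nucleophosmin (Npm1). Of the 60S assembly factors, 12 of 13 passed, led by Rrp1b at 0.55 (SE 0.0713), Noc2l at 0.49 (SE 0.0632) and Mrto4, which holds the place of the ribosomal stalk on the precursor, at 0.61 (SE 0.0973). Of the SSU processome 7 of 8 passed, led by Wdr43 at 0.41, Utp15 at 0.51 and Utp20 at 0.50. The catalytic subunits of RNA polymerase I, Polr1a at 0.42 and Polr1b at 0.54, both passed. Not passing were Gnl2, a GTPase of 60S assembly, at 0.17 and Dhx37, a helicase that frees the U3 snoRNA, at 0.10.

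Export and late maturation genes differed least between the classes. In this group 5 of 9 passed, with a median of 0.25, namely Ltv1 (0.33), Tsr1 (0.27), Riok2 (0.38), Nmd3 (0.25) and Bms1 (0.19). Values for the other 4 were 0.25 for the kinase Riok1 (edgeR adjusted p = 0.142), 0.17 for the nuclease Nob1 (0.0676), 0.16 for Rrp12 (0.162) and 0.04 for Eif6 (0.654). Eif6, which binds the 60S subunit and keeps it from joining the 40S subunit, was higher in cycling cells in 5 of 9 untreated libraries and in 1 of 8 KPT-330 libraries. In the KPT-330 libraries alone, its fitted difference between cycling and other cells was -0.27 and passed the test.

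Cycling cells also held more UMIs. Their median per cell was above that of other cells in each library, and ran from 3140 to 9289 against 2674 to 8336.5 over the untreated libraries. With each cell thinned to 2000 UMIs before the classes were drawn, 22 of the 44 genes still tested passed, all higher. Nmd3, Ltv1, Tsr1, Riok2 and Bms1 were among those that did not pass in the thinned cells, while Nhp2, Gar1, Nop58, Ncl, Nolc1, Npm1 and Rrp1b passed. Bms1 (highest adjusted p 0.0986), Bop1 (0.141), Noc3l (0.0866) and Nip7 (0.128) lost the call on leaving out 1 of 3, 4, 4 and 5 single libraries respectively.

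**Figure D1:**
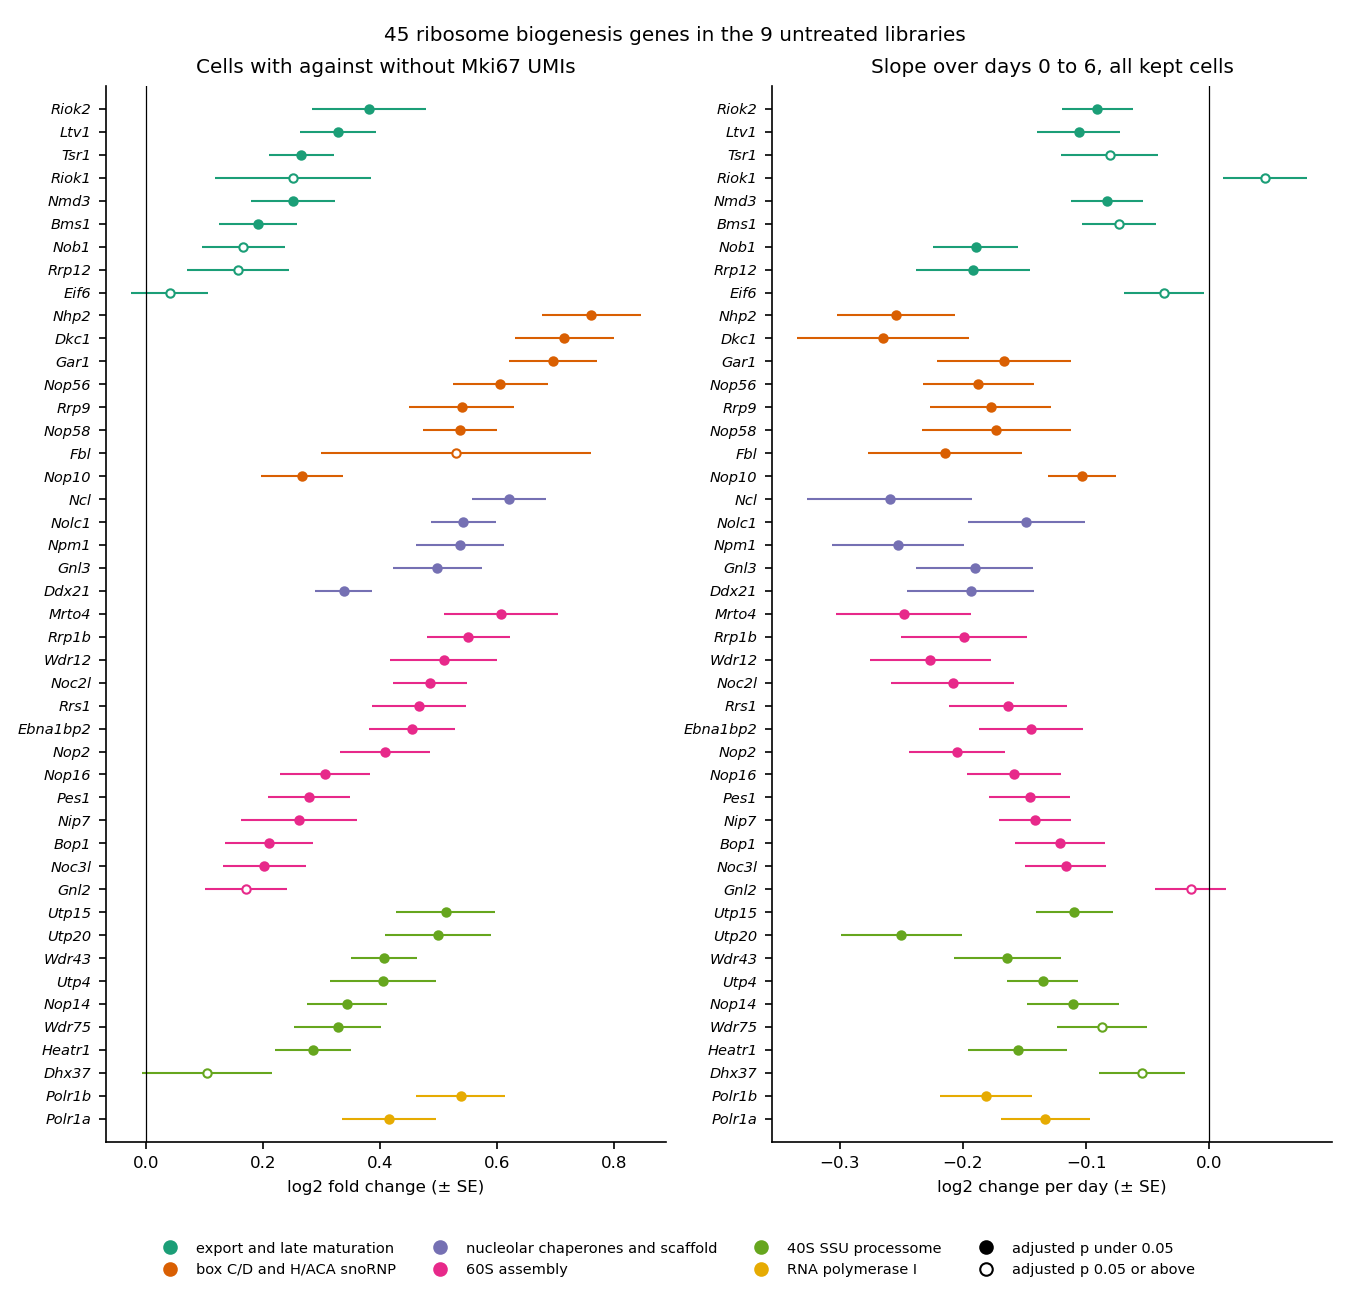
The 45 genes in the untreated libraries, coloured by role: on the left the log2 fold change of cells with against cells without Mki67 UMIs, on the right the log2 change per day over days 0 to 6 in all kept cells, as fitted values with SE bars. Filled points passed an adjusted p of 0.05 (38 in each panel), and Riok1 is the only point right of 0 in the slope panel.

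Differentiation was followed as a slope over days 0 to 6 in the same 9 untreated libraries. Both day 0 libraries were in ENR+CV and all later ones in ENR+CD, so time and the change of medium cannot be told apart at that end of the slope. In all kept cells 38 of the 45 genes fell with time, against 20% of the 12184 genes tested, and 0 of 45 rose; in either direction 38.6% of genes passed. The median change was -0.16 log2 units per day for the 45 genes and 0.00 for all genes. The 8 snoRNP genes, the 5 chaperones and scaffold genes and both polymerase subunits all fell, as did 12 of 13 factors of 60S assembly, 6 of 8 of the SSU processome and 5 of 9 of export and late maturation.

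Summed over the 45 genes, the level was 55.2 and 59.6 scaled UMIs per 10,000 in the ENR+CV libraries. It stood at 81.4 in the control after 0.25 days of ENR+CD, then at 46.7 at day 1, 30.8 at day 2, 29.7 at day 3, 31.9 at day 4, and 31.9 and 29.5 at day 6. The day 0.25 library was thus above both day 0 libraries and the libraries of days 1 to 6 below them. Without Ncl and Ddx21, the genes with most counts, the sums were 39.2 and 43.0 at day 0, 52.7 at day 0.25, and 23.8 and 22.6 at day 6.

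Ncl followed this course. It was at 11.9 and 12.2 scaled UMIs per 10,000 at day 0, at 23.3 in the control at day 0.25, and at 9.97, 5.29, 5.05 and 5.47 at days 1, 2, 3 and 4. At day 6 it was at 5.79 and 4.99, below both day 0 libraries, and its slope was -0.26 per day (SE 0.0673, edgeR adjusted p = 0.0125). Dkc1 went from 1.11 and 1.24 at day 0 to 2.16 at day 0.25 and to 0.595 and 0.432 at day 6, with a slope of -0.26 (SE 0.0697, edgeR adjusted p = 0.0134). Npm1 was at 2.74 and 3.19 at day 0, 5.36 at day 0.25, and 1.49 and 1.25 at day 6. Its slope was -0.25 (SE 0.0537, edgeR adjusted p = 0.00542), and processed copies of Npm1 elsewhere in the genome make its count uncertain.

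The smallest p of the set belonged to Nob1, the endonuclease that makes the 3′ end of 18S rRNA in the cytoplasm. Nob1 was at 0.692 and 0.511 at day 0 and at 0.662, 0.522, 0.385, 0.333 and 0.308 at days 0.25, 1, 2, 3 and 4 of the control, before 0.254 and 0.330 at day 6. Its slope was -0.19 (SE 0.0342, edgeR adjusted p = 0.00286), and the day 6 libraries did not overlap with day 0. Nhp2 fell by 0.25 per day (edgeR adjusted p = 0.00345), Nop2, an rRNA methyltransferase, by 0.20 (0.00359), and Utp20 by 0.25 (0.00413). Polr1b fell by 0.18 (0.00481) and Wdr12, which forms a complex with Pes1 and Bop1, by 0.23 (0.00602). Genes that did not pass were Tsr1 (-0.08), Bms1 (-0.07), Eif6 (-0.04), Gnl2 (-0.02), Wdr75 (-0.09) and Dhx37 (-0.05), with Riok1 at 0.05 as the single positive slope.

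Level at day 6 and level at day 0.25 gave different pictures. The day 6 controls lay below both day 0 libraries in 41 of 45 genes, where 36.6% of 11906 genes did, and above both in Riok1 alone (36.8% of genes). Riok1, an atypical kinase of cytoplasmic 40S maturation, was at 0.232 and 0.257 at day 0 and at 0.362 and 0.290 at day 6. The control of day 0.25 lay above both day 0 libraries in 32 of 45 genes, where 38.1% of genes did, among them Ncl, Npm1, Dkc1, Gar1, Utp20 and Polr1a. In cycling cells alone these were 31 of 45 genes (37.2% of genes) and in other cells 31 of 45 (36.1%). This is 1 library and has no replicate. The share of cycling cells was 77.4% and 83.3% at day 0 and 83.5% at day 0.25, so it was within 1 percentage point of the higher day 0 library when the summed level stood at 81.4. In cells thinned to 2000 UMIs the shares were 62.2% and 74.1% at day 0 and 72.5% at day 0.25.

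Over the later days the share of cycling cells moved with these genes, from 83.5% at day 0.25 to 42.3%, 22.9%, 13.7% and 14.4% at days 1, 2, 3 and 4 and to 17.8% and 11.4% at day 6. In cells thinned to 2000 UMIs it was 72.5% at day 0.25 and 31.7%, 14.5%, 8.23% and 9.23% at days 1 to 4. At day 6 it was 9.71% and 10.5% in such cells. In sums over all cells, a lower share of cycling cells and a lower level per cell cannot be told apart, so the slopes were fitted within each class. In cycling cells 8 of 45 genes fell (8.18% of genes tested), namely Rrp12 (-0.20), Nob1 (-0.14), Ddx21 (-0.15), Nop2 (-0.12), Nop16 (-0.12), Utp20 (-0.16), Wdr43 (-0.12) and Heatr1 (-0.12). In other cells 21 fell (13.8% of genes tested), with Nhp2 at -0.21 and Nob1 at -0.20 of smallest p. The median slope was -0.09 in cycling and -0.12 in other cells, against 0.00 and 0.01 over all genes. Paneth markers (4 of 4) and enteroendocrine markers (4 of 4) rose and proliferation markers (5 of 5) fell over the same libraries, and their part in the slopes was not tested.

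These class slopes depended on single libraries. In cycling cells the count went from 8 to 1 without either the control of day 0.25, the ENR+CV replicate 1 or the control of day 4, to 4 without ENR+CV replicate 2, to 5 without the control of day 1 or replicate 2 of day 6, and to 0 in the ENR+CD libraries alone. In other cells it went from 21 to 12 without day 0.25, to 13 without replicate 2 of day 6 and to 10 in ENR+CD alone, and in all cells from 38 to 15 in ENR+CD alone. On a scale of log2(day + 0.25), 27 of 45 fell in cycling cells, and in other cells 31 fell and Riok1 rose.

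**Figure D2:**
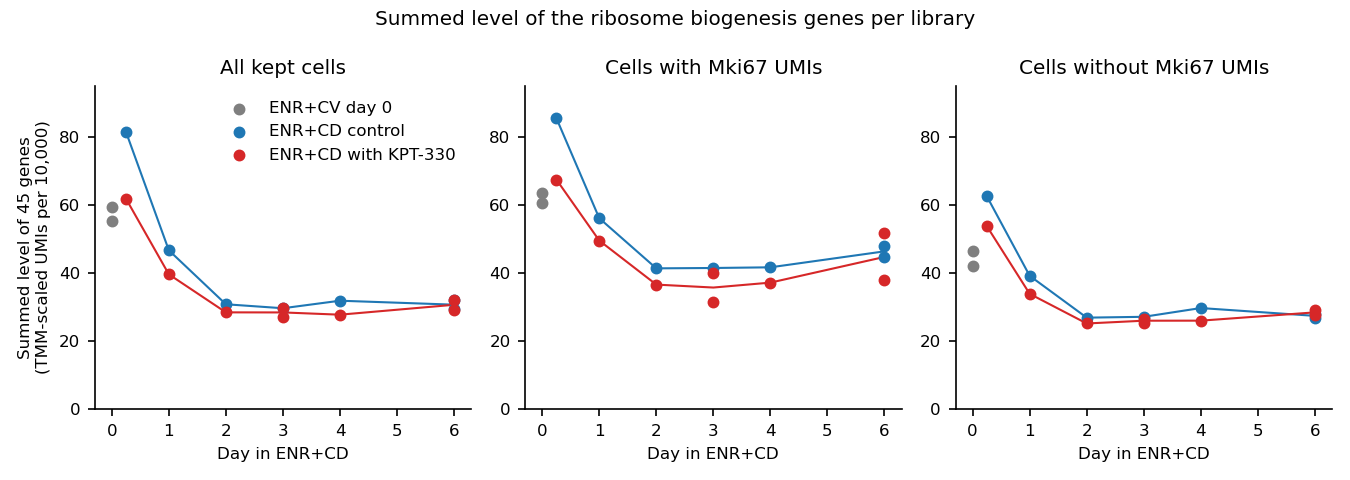
Summed level of the 45 genes per library, in TMM-scaled UMIs per 10,000, against the day in ENR+CD, for all kept cells, cells with Mki67 UMIs and cells without; each point is a library and lines join the means of a condition. The control at day 0.25 stands at 81.4 in all cells, above 55.2 and 59.6 at day 0, and from day 2 every library of the all-cell panel is at 32.1 or less, while cells with Mki67 UMIs reach 51.6.

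The promoters of these genes were searched for CACGTG, the palindromic E-box that MYC and MAX and other helix-loop-helix factors can bind. RefSeq promoters on GRCm38.p6, 250 bases before to 50 after the annotated start, were at hand for 38 of the 45 genes, and 8 of these held the motif (21.1%). Among all 27025 genes with a promoter, 8.09% did, and among 8902 genes tested here, 12.2%. The site with 10 bases on each side is shown 5′ to 3′ on the strand of the gene, with the motif in capitals, to show where in each promoter the letters lie. The Utp20 window ends with its promoter.
Nmd3: ccccttgctaCACGTGtattctttga
Nop2: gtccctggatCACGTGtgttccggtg
Utp4: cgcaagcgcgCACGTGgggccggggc
Ltv1: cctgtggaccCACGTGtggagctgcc
Utp20: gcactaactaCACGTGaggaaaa
Pes1: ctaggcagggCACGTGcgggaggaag
Tsr1: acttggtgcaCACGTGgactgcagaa
Wdr43: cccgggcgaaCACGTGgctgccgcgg

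In Nmd3 (chr3:69721931-69721956, plus strand) and Nop2 (chr6:125131813-125131838, plus strand) the motif began 114 and 60 bases before the start. In the other 6 it began 3 to 38 bases after the start, as in Ltv1 (chr10:13193094-13193119, minus strand) and Pes1 (chr11:3963967-3963992, plus strand). A place after the start was found for 75.0% of the 8 genes and for 13.8% of the 2187 genes that held the motif. The match is a description of the sequence and no binding was measured. Of the factors, Myc did not pass in any comparison (log2 fold change of 0.15 in cycling against other untreated cells, edgeR adjusted p = 0.0912), nor did Max, and Mycn was too low to test.

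KPT-330 was then set against control in the 15 ENR+CD libraries, with the day as a factor. In all kept cells 14 of the 45 genes were lower with KPT-330 and 1, Eif6, was higher. Of the 11905 genes tested, 29.8% passed, 14.8% lower and 15% higher, while the 14 lower were 31.1% of the 45 genes. At an unadjusted p under 0.05 in either direction there were 17 of the 45 genes (37.8%, against 42.5% of all genes). In either direction the counts were thus near those of all genes. The median log2 fold change was -0.15 over the 45 genes and 0.00 over all genes tested. Lower were 4 of 8 snoRNP genes, 1 of 5 chaperone and scaffold genes, 6 of 13 genes of 60S assembly, 2 of 8 of the SSU processome and 1 of 2 polymerase subunits, but 0 of 9 export and late maturation genes.

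Rrp1b, a nucleolar protein of 60S assembly, differed most. It was at 0.879, 0.535, 0.343, 0.305 and 0.449 scaled UMIs per 10,000 in the controls of days 0.25, 1, 2, 3 and 4, and at 0.376 and 0.349 at day 6. With KPT-330 it was at 0.531, 0.386, 0.249 and 0.211 at days 0.25, 1, 2 and 4, at 0.281 and 0.175 at day 3, and at 0.320 and 0.254 at day 6. Every KPT-330 library lay below the control libraries of its day, and the fitted log2 fold change was -0.53 (SE 0.116, edgeR adjusted p = 0.00526).

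Nop56, the core scaffold of box C/D snoRNPs, had the smallest p. Its controls were at 1.99, 1.21, 0.764, 0.808 and 0.829 at days 0.25, 1, 2, 3 and 4 and at 0.843 and 0.822 at day 6. With KPT-330 it stood at 1.15, 0.941, 0.601 and 0.705 at days 0.25, 1, 2 and 4, at 0.629 and 0.551 at day 3 and at 0.658 and 0.677 at day 6. KPT-330 libraries were again below control on each day, by -0.40 in the fit (SE 0.0760, edgeR adjusted p = 0.00254). Utp20, a very large scaffold protein of pre-rRNA processing, ran from 1.58 to 0.434 in controls (median 0.494) and from 1.08 to 0.320 with KPT-330 (median 0.415), with a fold change of -0.37 (SE 0.0767, edgeR adjusted p = 0.0040). Dhx37 ran from 0.216 to 0.370 in controls (median 0.258) and from 0.171 to 0.273 with KPT-330 (median 0.194), with a fold change of -0.32 (SE 0.0864, edgeR adjusted p = 0.0141). These 2 genes were also lower at all 6 days.

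Of the PeBoW complex of Pes1, Bop1 and Wdr12, which takes part in 60S assembly, Wdr12 fell by 0.41 (SE 0.105, edgeR adjusted p = 0.0113). Pes1 had a log2 fold change of 0.01 and Bop1 of 0.05, and neither passed. Of the H/ACA particle, Nhp2 fell by 0.26 (0.0152), Gar1 by 0.33 (0.0186) and Dkc1 by 0.35 (0.0289), with Nop10 at -0.0036 and not passing. The remaining lower genes were Polr1a (-0.27), Nop16 (-0.29), Noc2l (-0.26), Ncl (-0.28), Mrto4 (-0.26) and Ebna1bp2 (-0.19), with edgeR adjusted p from 0.0216 to 0.0474.

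Of these 15 calls, those of Eif6, Nop56, Rrp1b, Utp20 and Dhx37 were made in each of the 12 fits that left out a day or a library of a replicated group. Nhp2 lost its call without day 6 (adjusted p 0.0535), Gar1 without day 2 (0.0526), and Wdr12 (0.0508) and Polr1a (0.105) without day 3. Nop16 lost it in 3 of 12 fits, Dkc1 and Noc2l in 4, Mrto4 in 6, Ncl in 8 and Ebna1bp2 in 10. The count of 15 fell to 9 without day 3 and to 9 without day 4.

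**Figure D3:**
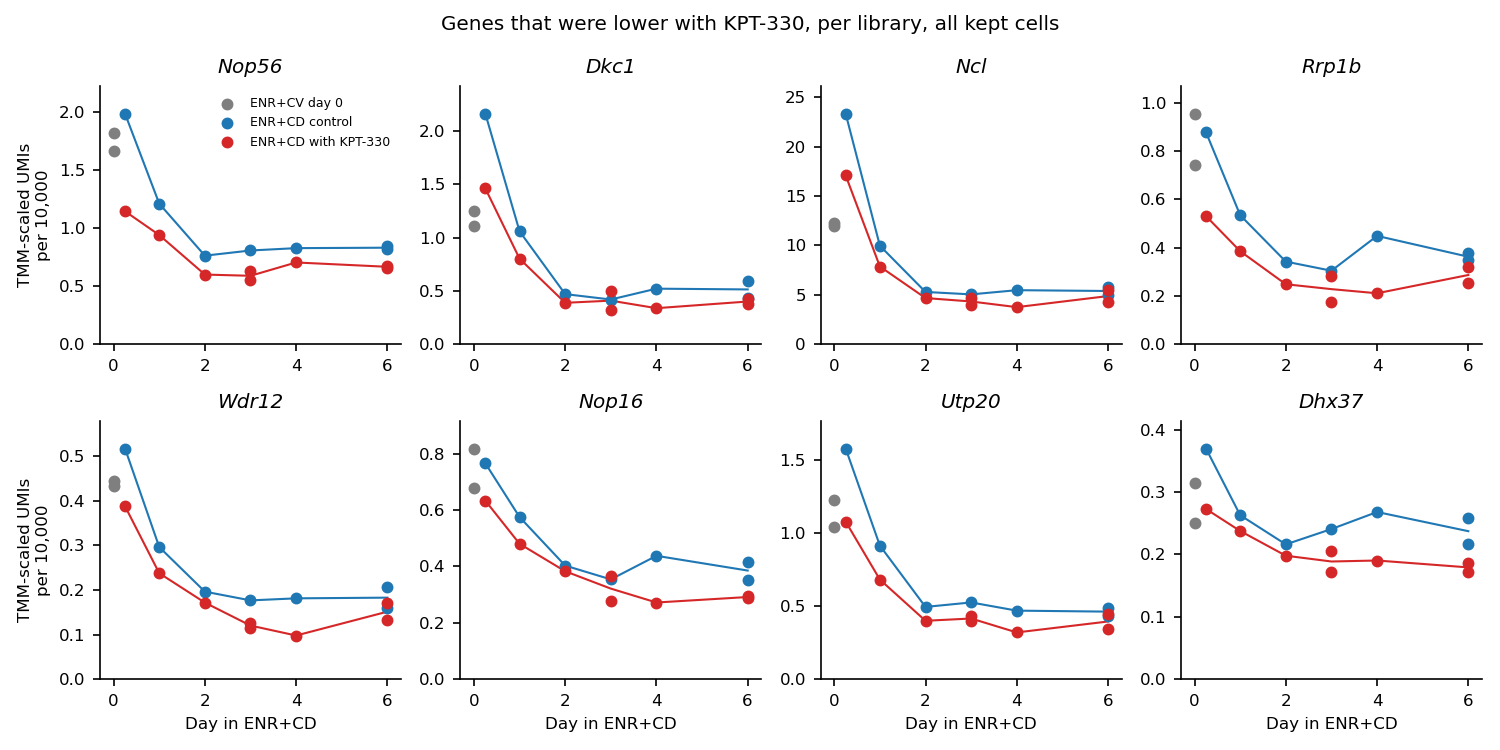
Level of 8 genes that were lower with KPT-330, in TMM-scaled UMIs per 10,000 of all kept cells, against the day in ENR+CD; each point is a library (grey ENR+CV, blue control, red KPT-330) and lines join the means of a condition. For Nop56 and Rrp1b, each red point lies under the blue points of the same day.

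Of the 9 genes counted as export and late maturation, 8 are given library by library. Bms1, the GTPase of early 40S assembly in that count, ran from 0.577 to 0.997 in controls and from 0.490 to 0.905 with KPT-330. Its change was -0.02 (edgeR adjusted p = 0.855). Nmd3 (chr3:69721985-69756373, mm10, plus strand), the XPO1 adaptor of the 60S subunit, was at 0.498 and 0.470 in ENR+CV. Its controls were at 0.525, 0.416, 0.328, 0.351 and 0.329 at days 0.25, 1, 2, 3 and 4, and at 0.347 and 0.358 at day 6. With KPT-330 it was at 0.427, 0.425, 0.335 and 0.386 at days 0.25, 1, 2 and 4, at 0.336 and 0.454 at day 3, and at 0.472 and 0.469 at day 6. KPT-330 was thus lower at day 0.25 and higher at day 6 without overlap, as were 23.6% of all genes at day 6. The fitted change over all days was 0.14 (SE 0.0951, edgeR adjusted p = 0.266).

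Rrp12, which takes part in the export of both subunits, was at 0.363 and 0.343 in ENR+CV. In controls it was at 0.447, 0.259, 0.164, 0.200 and 0.169 at days 0.25, 1, 2, 3 and 4, and at 0.157 and 0.189 at day 6. Under KPT-330 it stood at 0.258, 0.173, 0.113 and 0.145 at days 0.25, 1, 2 and 4, at 0.132 and 0.165 at day 3, and at 0.256 and 0.194 at day 6. Rrp12 lay below control from day 0.25 to day 4 and above it at day 6, and the fit gave -0.28 (SE 0.149, edgeR adjusted p = 0.171). Without day 6 it was -0.53 and passed, as it did without KPT-330 replicate 1 of day 6.

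Of the 40S factors, Ltv1, which is removed in the cytoplasm, was at 0.794 and 0.959 in ENR+CV and at 0.982, 0.607, 0.587, 0.537 and 0.593 in controls of days 0.25, 1, 2, 3 and 4, with 0.578 and 0.554 at day 6. KPT-330 libraries were at 0.814, 0.553, 0.608 and 0.557 at days 0.25, 1, 2 and 4, at 0.470 and 0.581 at day 3 and at 0.573 and 0.506 at day 6. Groups overlapped at days 3 and 6, and the change of -0.08 (SE 0.0689, edgeR adjusted p = 0.416) did not pass. Tsr1, which blocks the decoding site until late, was at 0.800 and 0.907 in ENR+CV and at 1.32, 0.836, 0.584, 0.794 and 0.701 in controls of days 0.25, 1, 2, 3 and 4, with 0.707 and 0.686 at day 6. In KPT-330 libraries it was at 1.23, 0.712, 0.620 and 0.832 at days 0.25, 1, 2 and 4, at 0.723 and 0.727 at day 3 and at 0.889 and 0.826 at day 6. Tsr1 was higher with KPT-330 at days 2, 4 and 6 and lower at the others, with a fitted change of 0.06 (edgeR adjusted p = 0.583).

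The kinases gave small differences as well. Riok1 in controls was at 0.338, 0.335, 0.281, 0.280 and 0.361 at days 0.25, 1, 2, 3 and 4 and at 0.362 and 0.290 at day 6. Its KPT-330 values were 0.363, 0.271, 0.282 and 0.285 at days 0.25, 1, 2 and 4, at 0.374 and 0.282 at day 3, and at 0.367 and 0.303 at day 6. The groups overlapped, and the change was -0.01 (edgeR adjusted p = 0.960). Riok2 was at 0.405 and 0.333 in ENR+CV and at 0.461, 0.390, 0.320, 0.333 and 0.284 in controls of days 0.25, 1, 2, 3 and 4, with 0.258 and 0.296 at day 6. With KPT-330 it was at 0.453, 0.363, 0.268 and 0.256 at days 0.25, 1, 2 and 4, at 0.210 and 0.256 at day 3 and at 0.266 and 0.246 at day 6. Its day means were lower with KPT-330 at all 6 days, yet the change of -0.20 (SE 0.0864, edgeR adjusted p = 0.101) did not pass. Nob1 with KPT-330 was at 0.624, 0.508, 0.369 and 0.301 at days 0.25, 1, 2 and 4, at 0.287 and 0.236 at day 3 and at 0.263 and 0.337 at day 6, with overlap at day 6 and a change of -0.07 (edgeR adjusted p = 0.558).

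Eif6 (chr2:155819832-155826925, mm10, minus strand) was the exception of the group. It was at 1.35 and 1.95 in ENR+CV. In controls it was at 1.24, 1.39, 1.53, 1.19 and 1.22 at days 0.25, 1, 2, 3 and 4, and at 1.42 and 1.23 at day 6. With KPT-330 it was at 1.86, 1.48, 1.80 and 1.87 at days 0.25, 1, 2 and 4, at 1.81 and 2.34 at day 3, and at 1.65 and 1.73 at day 6. Every KPT-330 library lay above the control libraries of its day, and the fitted log2 fold change was 0.46 (SE 0.0952, edgeR adjusted p = 0.00422). Higher at all 6 days were Eif6 and 12.5% of all genes; lower at all 6 days were 15 of the 45 genes and 13.6% of all genes. Within other cells Eif6 was again higher at all 6 days (10.8% of genes), while within cycling cells its log2 ratio was 0.00 at day 1 and 0.01 at day 4. Lower at all 6 days were 6 of the 45 genes in cycling cells and 10 in other cells (7.44% and 11.3% of genes), Nop56, Ncl and Wdr12 among them in both.

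Among the other genes of the pathway, taken from a list of 109, 3 were higher with KPT-330 in all cells (2.75%, against 15% of all genes). Of these 3, Sbds and Efl1 code for the protein and the GTPase that release eIF6 from the 60S subunit in the cytoplasm. Sbds was at 0.539, 0.481, 0.700, 0.477 and 0.520 in controls of days 0.25, 1, 2, 3 and 4 and at 0.611 and 0.494 at day 6, against 0.615, 0.559, 0.735 and 0.692 with KPT-330 at days 0.25, 1, 2 and 4, 0.670 and 0.919 at day 3, and 0.814 and 0.717 at day 6. KPT-330 was higher on each day, by 0.39 in the fit (SE 0.0996, edgeR adjusted p = 0.0120). Efl1 was at 0.524, 0.598, 0.578, 0.494 and 0.543 in controls of days 0.25 to 4 and at 0.561 and 0.477 at day 6, against 0.533, 0.545, 0.679 and 0.705 with KPT-330 at days 0.25, 1, 2 and 4, 0.652 and 0.805 at day 3 and 0.715 and 0.654 at day 6. It was higher on each day but day 1, by 0.29 in the fit (SE 0.0911, edgeR adjusted p = 0.0299). Without day 6 the call of Sbds was lost (adjusted p 0.0607), and that of Efl1 was lost in 6 of 12 fits that left out a day or a library.

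The other gene of the list that was higher was Utp23 (0.38, edgeR adjusted p = 0.0468), which lost its call in 9 of those fits. Lower were 12 of the 109 (11%, below the 14.8% of all genes), with the smallest p for Ubtf, the DNA-binding factor that keeps rRNA genes open (-0.28, edgeR adjusted p = 0.0109), the RNA polymerase I subunit Polr1e (-0.37, 0.0115) and Tcof1, a cofactor of rRNA transcription (-0.37, 0.0149; 0.0518 without day 6). The median over the 109 genes was -0.08. The list was counted in the untreated comparisons as well. In cycling against other cells 74 were higher (67.9%, against 22.1% of all genes), led by Tcof1 (1.19), Exosc8 (1.31) and Ruvbl2 (0.88), and 2 were lower, Zfp622 (-0.28) and Sbds (-0.27). Over time 70 of 109 fell in all cells (64.2%, against 20% of all genes), led by Polr1c (-0.19), Imp4 (-0.19) and Wdr46 (-0.23), 12 fell in cycling cells (11%, near the 8.18% of all genes; Rcl1, Imp4 and Nsa2 of smallest p) and 26 in other cells (23.9%, against 13.8%; Polr1c, Ddx49 and Imp4).

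**Figure D4:**
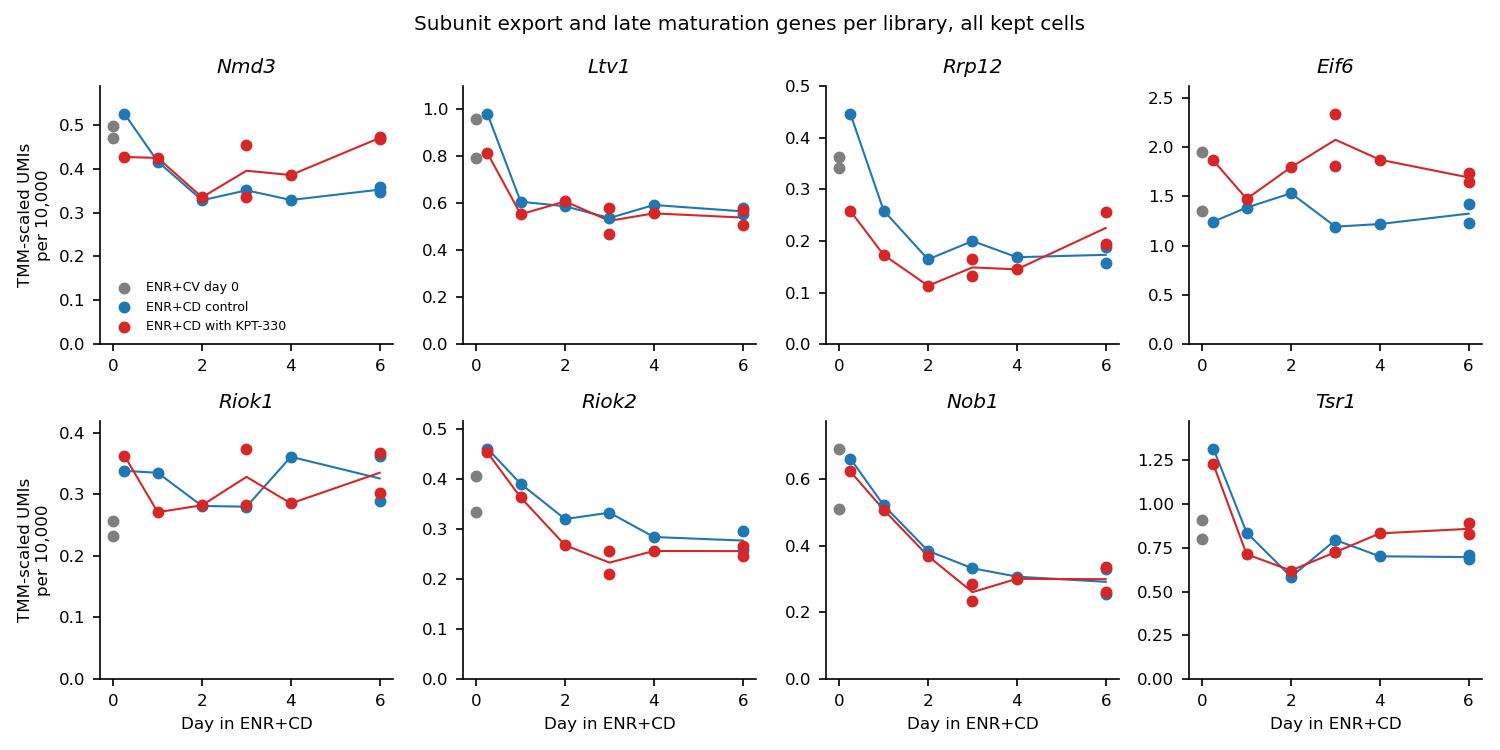
Level of 8 genes of subunit export and late maturation in all kept cells, in TMM-scaled UMIs per 10,000, against the day in ENR+CD; each point is a library (grey ENR+CV, blue control, red KPT-330) and lines join the means of a condition. Eif6 is the gene in which each red point lies over the blue points of its day, and Nmd3 and Rrp12 lie under control at day 0.25 and over it at day 6.

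The treated and control libraries also differed in their cells. The share of cycling cells with KPT-330 against control was 69.9% against 83.5% at day 0.25, 29.3% against 42.3% at day 1, 17.6% against 22.9% at day 2, and 5.34% against 14.4% at day 4. It was 13.6% and 6.21% against 13.7% at day 3, and 8.42% and 4.80% against 17.8% and 11.4% at day 6. Mki67 can go uncounted in a cell with few UMIs, so these shares also depend on depth. With cells thinned to 2000 UMIs and shallower cells left out, the share was 60.9% against 72.5% at day 0.25. It was then 24.1% against 31.7% at day 1, 9.54% against 14.5% at day 2 and 4.41% against 9.23% at day 4. It was 6.94% and 3.10% against 8.23% at day 3. At day 6 it was 5.14% and 3.30% against 9.71% and 10.5%. Proliferation markers (5 of 5) and stem markers (4 of 4) were lower and Paneth markers (4 of 4) higher with KPT-330 in all cells, with 2 of 4 enterocyte and 3 of 4 goblet markers higher and 3 of 4 enteroendocrine markers lower. Summed proliferation markers ran from 2.15 to 21.9 scaled UMIs per 10,000 in controls (median 3.50) and from 0.535 to 15.8 with KPT-330 (median 1.49), and summed Paneth markers from 27.2 to 1011 (median 421) and from 37.4 to 2289 (median 884). Their part in the lower snoRNP and 60S genes and in the higher Eif6 was not tested beyond the classes below.

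Treated as 2 classes of cells, the same genes gave fewer calls. In other cells 7 of the 45 genes passed, where 27.3% of genes did (14.1% lower and 13.1% higher). At an unadjusted p under 0.05 there were 16 of the 45 genes (35.6%, against 39.7% of all genes). The 6 lower by adjusted p were 13.3% of the 45 genes, near the share of all genes. They were Nop56 (-0.39, edgeR adjusted p = 0.00542), Utp20 (-0.36, 0.00427), Rrp1b (-0.49, 0.0107), Nop16 (-0.36, 0.0179), Dhx37 (-0.32, 0.0201) and Wdr12 (-0.37, 0.0367), and Eif6 was higher by 0.52 (SE 0.119, edgeR adjusted p = 0.00622). Sbds (0.38) and Efl1 (0.35) were the 2 of 109 pathway genes that were higher there, and 7 were lower, with Ubtf (-0.26), Polr1e (-0.35) and Wdr46 (-0.30) of smallest p. On plain library totals neither Sbds nor Efl1 passed there. Leaving out a day or a library cost Sbds and Efl1 0 of 12 calls, Ubtf 1 (without day 6), Polr1e 3 and Wdr46 7. Nop56, Rrp1b, Utp20 and Eif6 held their call in each of 12 fits that left out a day or a library. Wdr12 lost it in 8 of these fits, Dhx37 in 3 and Nop16 in 2, and the count of 7 fell to 4 without day 4. Summed proliferation markers in other cells were at most 1.24 scaled UMIs per 10,000 in controls and 0.842 with KPT-330. The sum includes Mki67, which is 0 in these cells by the rule, so a low sum was in part set in advance. Of the proliferation markers, 1 of 5 had enough counts to be tested there. Further, 3 of 4 Paneth and 4 of 4 goblet markers were higher in other cells, and 4 of 4 enteroendocrine and 3 of 4 stem markers lower. The part of these markers was not tested.

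In cycling cells 0 of the 45 genes passed in edgeR, where 6.18% of genes did. At an unadjusted p under 0.05 there were 12 (26.7%), where 22.2% of all genes were, so the count is near that of all genes. Of the genes with a call in all cells, Nop56 was at -0.37 (edgeR adjusted p = 0.0717), Ncl at -0.33 (0.0841), Rrp1b at -0.39 (0.0860), Polr1a at -0.32 (0.0873) and Wdr12 at -0.49 (0.113), and Eif6 at 0.27 (0.169). DESeq2 called 2 of the 45 genes. Of the 109 pathway genes, Ddx18 (-0.64, edgeR adjusted p = 0.0430) and Tcof1 (-0.51, 0.0442) were lower, and each lost its call in 8 of 12 fits that left out a day or a library. In these cells 4 of 4 Paneth and 3 of 4 goblet markers were higher and 2 of 5 proliferation markers lower, and their part was not tested. The proliferation markers include Mki67, by which these cells were drawn. These sums rested on as few as 48 cells in 1 library. Cells drawn by Mki67 were not free of Paneth transcripts. At day 6 summed Paneth markers with KPT-330 were 2205 and 1338 scaled UMIs per 10,000 in cycling cells and 2223 and 1854 in other cells. In the controls of that day they were 861 and 566 in cycling cells and 1039 and 1039 in other cells. Each class was scaled by itself, and the source of these counts was not tested. The median over the 45 genes was -0.15 in cycling cells, -0.15 in other cells and -0.15 in all cells.

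Whether KPT-330 acted differently in the 2 classes was tested in 1 fit with the library as a block. No gene of the 45 passed in edgeR, nor in DESeq2, where 0.109% of 11029 genes did in edgeR, and 3 had an unadjusted p under 0.05 (6.67%, against 8.27% of all genes). These were Eif6 (-0.24, SE 0.114, edgeR adjusted p = 0.589), Nop14 (-0.24, 0.598) and Heatr1 (0.31, 0.414), the sign being that of cycling minus other cells. In simulated counts of this fit, 78.5% of genes changed by 1 log2 unit were recovered, so a difference as small as that of Eif6 may have been beyond its reach. Of the calls in these simulated counts, 12.3% were of unchanged genes.

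**Figure D5:**
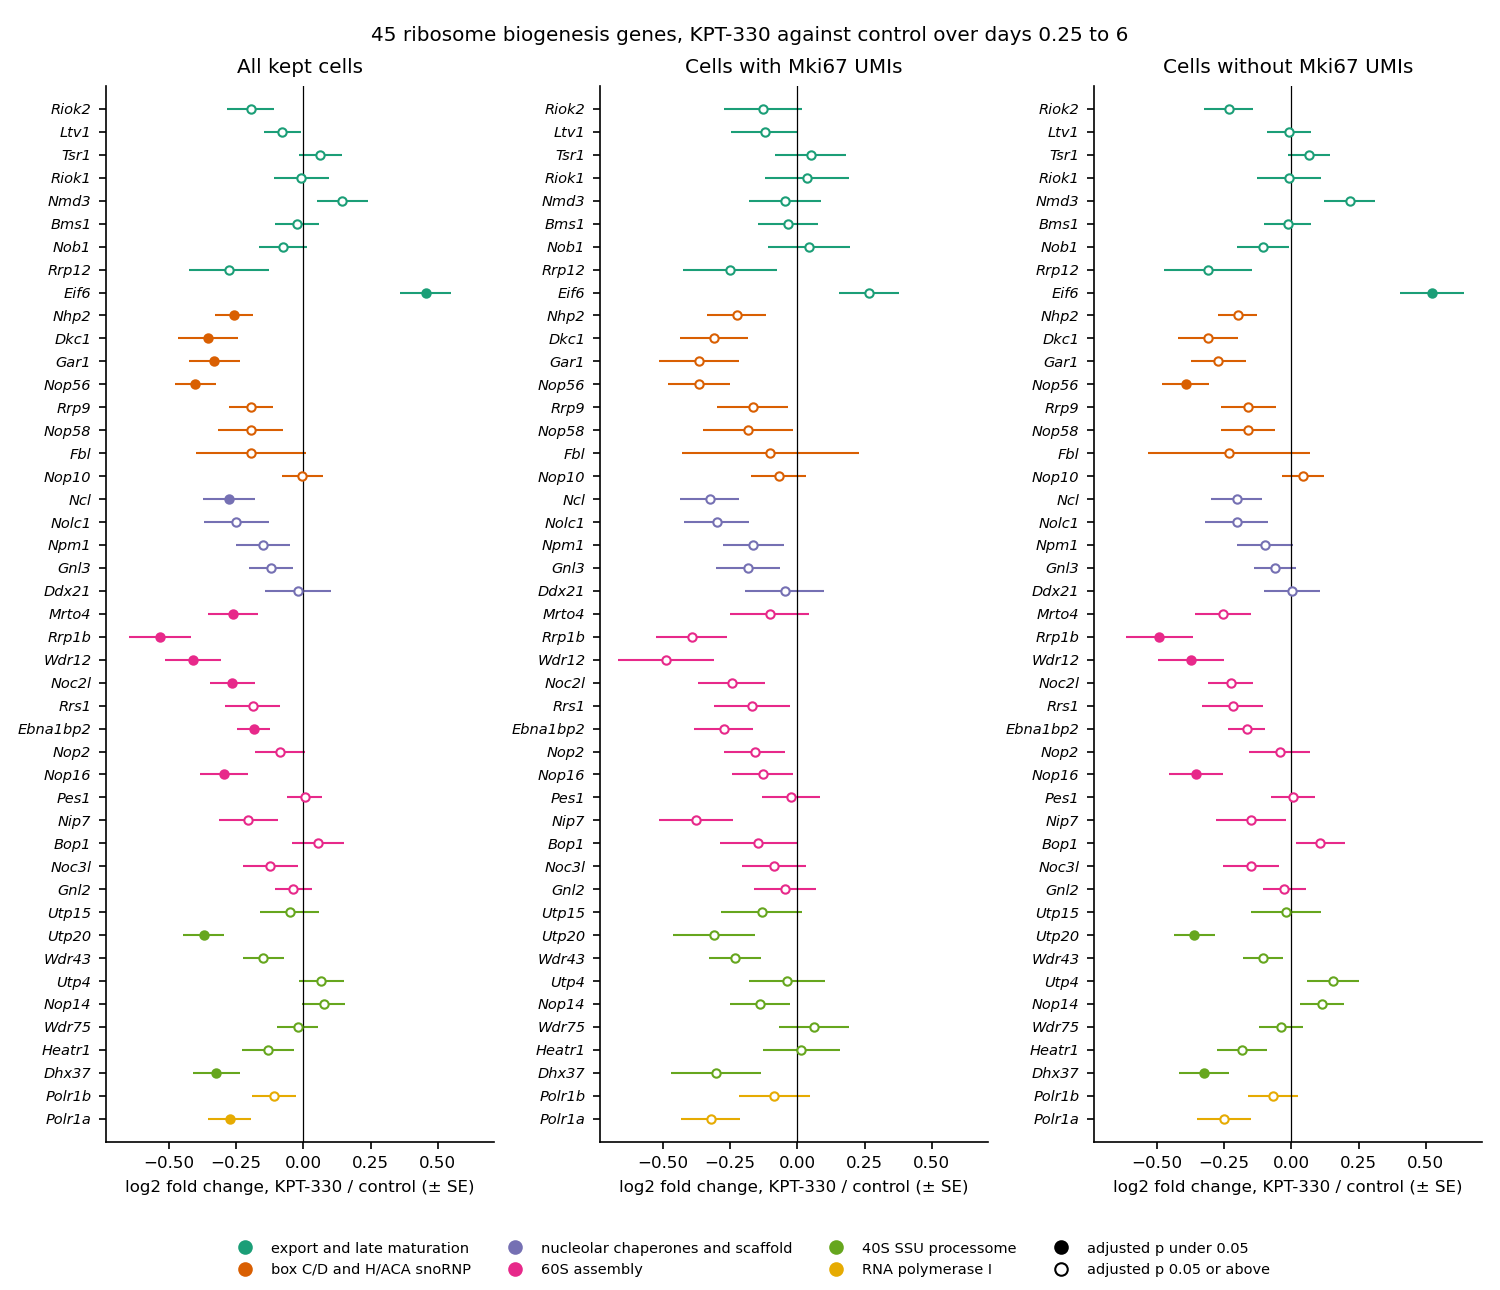
Fitted log2 fold change of KPT-330 against control with SE bars for the 45 genes, coloured by role, in all kept cells, cells with Mki67 UMIs and cells without. Filled points passed an adjusted p of 0.05: 15 in all cells, 0 in cells with Mki67 UMIs and 7 in cells without, with Eif6 the filled point right of 0.

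Day by day, the difference between KPT-330 and control in all cells was widest at day 0.25. The median log2 ratio over the 45 genes in all cells was -0.30 at day 0.25, -0.20 at day 1, -0.13 at day 2, -0.18 at day 3, -0.21 at day 4 and 0.01 at day 6, while that of all genes stayed between -0.04 and 0.01. Lower were 42 of 45 genes at day 0.25 (54.0% of all genes), 40 at day 1 (50.4%), 33 at day 2 (48.1%), 35 at day 3 (49.9%), 33 at day 4 (51.4%) and 22 at day 6 (51.6%). Each of days 0.25, 1, 2 and 4 had 1 library a condition, so these are descriptions. In other cells the median was -0.23 at day 0.25, -0.19 at day 1, -0.09 at day 2, -0.21 at day 3, -0.22 at day 4 and 0.02 at day 6, and more of the 45 genes were lower at day 1 (37) than at day 0.25 (32).

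At day 0.25 the summed level of the 45 genes was 61.8 with KPT-330 and 81.4 in the control, and above both day 0 libraries in either case. Without Ncl and Ddx21 it was 41.3 with KPT-330, between the 39.2 and 43.0 of day 0, and 52.7 in the control. Before TMM scaling the sum of all 45 genes with KPT-330, 65.9 per 10,000, also lay between those of day 0, 58.4 and 72.0. The control stood at 87.2 on that scale. The KPT-330 library lay above both day 0 libraries in 19 of 45 genes, near the share of all genes (35.8%), against 32 in the control. Ncl was at 17.1 with KPT-330 and 23.3 in the control, Nolc1, a chaperone of snoRNPs, at 1.46 and 2.72, Nop56 at 1.15 and 1.99 and Rrp12 at 0.258 and 0.447. Within cycling cells, Ncl was at 17.9 and 23.7 and the summed level at 64.3 and 82.2 on a scale shared by both classes. At day 6, 9 of 45 genes were lower in both KPT-330 libraries than in both controls (25.1% of all genes), among them Nop56, Dkc1, Nhp2, Rrp1b, Nop16 and Dhx37. Another 11 were higher in both (23.6%), among them Nmd3, Rrp12, Eif6, Tsr1, Bop1 and Utp4. Both counts were near the shares of all genes, so the names are given as descriptions only.

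A change of the effect between days 0.25 to 2 and days 3 to 6 was tested directly. In edgeR 0 of the 45 genes passed in all cells, in cycling cells and in other cells, as did 0.0% of genes, 0.0099% and 0.0%. At an unadjusted p under 0.05 there were 5, 2 and 4 of the 45 genes (11.1%, 4.44% and 8.89%, against 10.8%, 8.29% and 7.39% of all genes), and DESeq2 called 0 of the 45. The counts were near those of all genes. As values only, the 5 in all cells were Nolc1 (-0.62 in the early and 0.01 in the late days, edgeR adjusted p = 0.300), Ddx21, an RNA helicase (-0.35 and 0.21, 0.364), Bop1 (-0.18 and 0.23, 0.396), Rrp12 (-0.64 and -0.01, 0.402) and Nmd3 (-0.08 and 0.30, 0.433). Rrp1b was at -0.55 and -0.52, Utp20 at -0.43 and -0.33 and Eif6 at 0.31 and 0.56. In simulated counts this fit recovered 42.0% of genes changed by 1 log2 unit, so smaller changes over time would mostly be missed. Of the calls in those simulated counts, 12.5% were of unchanged genes.

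How the libraries were scaled bore on the counts. At days 3 to 6 the TMM factors were 1.01 to 1.15 in the controls and 0.707 to 0.897 in the KPT-330 libraries. With plain library totals, 36 of the 45 genes were lower with KPT-330 and 0 higher in all cells, with a median of -0.41, while over all genes 4726 were lower and 455 higher, against 1757 and 1786 with TMM, and the median over all genes was -0.26. Relative to that median the 45 genes stood at -0.15, as they did with TMM. On this scale Eif6 was at 0.20, Sbds at 0.12, Efl1 at 0.03 and Utp23 at 0.10 and none of these 4 passed, nor did Eif6 (0.28), Sbds (0.12) and Efl1 (0.09) in other cells, and Nmd3 turned from 0.14 to -0.11, passing on neither scale. In cycling cells 11 of the 45 genes were lower with library totals (553 genes lower and 171 higher, against 189 and 435 with TMM), and in other cells 32 (4387 and 366, against 1610 and 1496). In untreated cycling against other cells, 43 of the 45 genes were higher (3700 genes higher and 1731 lower, against 2504 and 2523 with TMM). Over time 40 fell in all cells (2871 genes lower and 1721 higher, against 2436 and 2268) and 12 in cycling cells (1055 and 576, against 887 and 791).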

How the data were processed

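Single-cell libraries of mouse intestinal organoids were made by Seq-Well S3, and the authors deposited whole-number UMI counts per gene and cell. By the study's methods and the submitters' processing notes, reads went through bcl2fastq, the Drop-seq pipeline and STAR on mm10, and the authors kept cells by genes, UMIs, mitochondrial share and house-keeping genes and removed doublets with DoubletFinder and by inspection. The files held 26229 barcodes, of which 19877 had been kept and were used; no doublet caller was run here. Strand setting and treatment of reads with several matches were not given in the sources used here.

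UMIs were summed per library, and per library for cells with at least 1 Mki67 UMI (cycling) and with 0 (other), where a class held at least 20 cells. Sums were fitted by edgeR 4.0.16 (R 4.3.3) quasi-likelihood tests with TMM factors, a mean count of at least 10 per gene, and p-values adjusted by Benjamini-Hochberg across the whole table at a threshold of 0.05. KPT-330 was compared with day as a factor, cells of both classes with the library as a block, and time as a slope per day. SE is the absolute log2 fold change over the square root of F. DESeq2 1.42.0, other scalings, filters, thinning and leaving out libraries were alternatives. Fits were tested on simulated counts, where the share of calls that fell on unchanged genes was above the threshold. It was 5.10% for KPT-330 in all cells, 9.79% for KPT-330 in cycling cells, 5.15% for the slope in all cells and 7.46% for untreated cycling against other cells. All 45 genes are accounted for; single values are given for 8 export and late genes, for calls, and, with many calls, for those of smallest p in each role. The members and gene lists were chosen with earlier results of these data known.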

Additional observations from a re-analysis of the deposited data

How the results depend on the processing

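Counts are of the 45 genes that passed. KPT-330 against control gave 15 in all cells, 0 in cycling and 7 in other cells. Library totals gave 36, 11 and 32. In cycling cells the count was 1 with no count filter, 2 with DESeq2 and 5 with cycling cells drawn by Top2a, and in other cells it was 11 among cells with at least 1000 genes. Leaving out a day or a library gave 9 to 15 in all cells (9 without day 3 or day 4), 0 to 2 in cycling and 4 to 9 in other cells (4 without day 4). Untreated slopes gave 38, 8 and 21 in all, cycling and other cells. ENR+CD libraries alone gave 15, 0 and 10. In cycling cells the slope count was 18 with no count filter, 5 with 2 Mki67 UMIs, 14 with Top2a, 5 in cells thinned to 2000 UMIs and 27 over log2(day + 0.25), and in other cells it was 32 over log2(day + 0.25). Leaving out a library gave 31 to 39, 1 to 9 and 12 to 24. Cycling against other cells gave 38, and 34 to 41 without a library and 22 in thinned cells. In the KPT-330 libraries that difference turned to -0.27 for Eif6, -0.015 for Bop1 and -0.0061 for Nip7. Where no cause shows in how an alternative was built, the cause was not tested. Counts for the difference between classes and between early and late days stayed at 0 in each alternative run. Thin classes limit the cycling results.

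Replicate numbers are shared between groups with no stated meaning. Days 0.25 and 1 carried only number 1 and days 2 and 4 only number 2. At day 3 the control was number 2 and the KPT-330 libraries were numbers 1 and 2. Time and replicate number were thus in part tied in the slopes and between early and late days. At day 6 the difference between replicates 1 and 2 correlated between control and KPT-330 at r = 0.487 across 11906 genes, which are not independent. With the replicate block, KPT-330 gave 16, 3 and 10 in all, cycling and other cells and the slopes 33, 6 and 19.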
